A study of Mus musculus with 8 samples.

Results

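Wt1-GFP-positive intermediate mesoderm of the E9.5 mouse embryo was collected by flow cytometry from a rostral and from a caudal part, and the 2 sorts were compared with each other on 1 array each. The pair was taken by its sample titles, which made 2 of the 8 arrays of the study. The rostral sort was Wt1-GFP-positive cells of the rostral part at embryonic day 9.5, the caudal sort was Wt1-GFP-positive cells of the caudal part at the same day, and both came from embryos of the ICR strain carrying the reporter, with no treatment. The other 6 arrays held Hoxb7-GFP-positive duct precursors, of which those from the rostral and caudal part at E9.5 and at E10.5 are used here as further rostral and caudal pairs. Per the series' design text the duct sorts were also gated as Flk1-negative, whereas the labels of the Wt1-GFP sorts state no such gate. The labels do not say where the embryos were divided, how many embryos were pooled, or which cells of the embryo besides intermediate mesoderm carried the Wt1-GFP signal. With 1 array in each position there was no replicate and hence no test, so each difference below compares these 2 sorts by its size and by whether the signal was well above background.

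The intermediate mesoderm lies between the somites and the lateral plate along most of the trunk, and gives rise to the kidneys and, with the coelomic epithelium beside it, the gonads. Its rostral part forms the pronephros and mesonephros and its caudal part the metanephros, the permanent kidney. Position along the trunk is marked by Hox genes, whose order on the chromosome follows the order in which they are switched on from rostral to caudal, the groups with the highest numbers lying most caudally. Wt1, a zinc finger transcription factor, is made in intermediate mesoderm and also in the coelomic lining, the proepicardium (the source of the outer layer of the heart) and the septum transversum (the source of mesoderm around the liver).

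A level here is the log2 of a gene's signal over its array's 75th percentile signal, and a difference is the rostral level minus the caudal level. Where a gene was well above background in 1 sort only, the dim side was raised to the lowest level well above background on its array (-3.96 in the rostral and -4.28 in the caudal sort), unless its own level was higher, and the fold is written as at least N-fold. The 75th percentile signals were 242.9 in the rostral and 248.3 in the caudal sort, 61.5% and 60.6% of probes were well above background, and 0 spots were saturated. The levels of the 2 sorts correlated across probes at r = 0.964. Repeated spots of 1 probe differed little in the rostral minus caudal difference (median SD 0.10 on the log2 scale), while different probes of 1 gene differed more, with a pooled SD of 0.47 over 6050 genes. These spreads are technical and say nothing of the spread between embryos.

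Of 24595 genes well above background in at least 1 of the sorts, 2011 (8.18%) were at least 2-fold higher in rostral Wt1-GFP cells and 942 (3.83%) at least 2-fold higher in caudal Wt1-GFP cells. Under quantile normalization the split was 1551 rostral higher and 1154 caudal higher, so the excess on the rostral side was smaller. Of the genes past 2-fold either way (12% of all), 1172 were signals well above background in 1 sort only and thus bounds. In sorted populations such as these, fewer cells of a type and less RNA per cell cannot be told apart. At 4-fold, 469 genes (1.91%) were rostral higher and 132 (0.537%) caudal higher. Folds of dim genes depend on the background correction: with normexp, which adds an offset, 464 genes were rostral higher and 217 caudal higher past 2-fold. Of 122 genes named by rule that were past 2-fold, 122 kept their direction under normexp and 81 stayed past 2-fold. The normexp value is given below for some of these genes only, so a fold without it may fall under 2-fold there. A second probe existed for 700 of the genes past 2-fold: it had the same sign for 564 (80.6%) and was past 2-fold the same way for 285 (40.7%). The plot of levels in the 2 sorts shows the genes past 2-fold on both sides of a narrow diagonal, with posterior Hox genes far on the caudal side and Gata4, Lhx9, Tbx5 and Myl4 far on the rostral side.

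**Figure D1:**
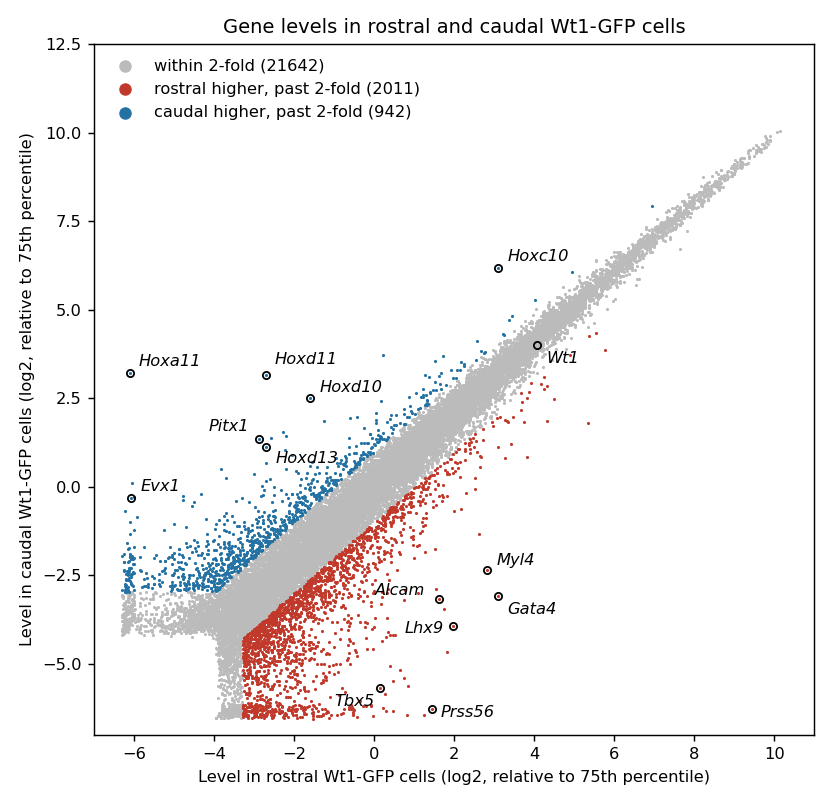
Level of each gene in rostral (horizontal axis) and caudal (vertical axis) Wt1-GFP cells, in log2 units over the 75th percentile signal, 1 array each. Each point is 1 of 24595 genes, coloured by whether its bounded difference was past 2-fold, with 2011 rostral higher and 942 caudal higher; open circles mark labelled genes.

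The genes whose reporters were used to sort the cells differed little between the sorts. Wt1 had a level of 4.08 in rostral and 4.01 in caudal Wt1-GFP cells, a difference of 0.06 (its 60-base probe lies on chromosome 2 at 105013656 to 105013715, build mm9). The same probe read between -5.13 and -0.20 in the 4 divided duct sorts. Hoxb7 stood at 1.5 in rostral and 1.63 in caudal cells. The probe of Kdr, which encodes Flk1, read 2.10 in both sorts and between 1.62 and 1.95 in the 4 divided duct sorts, which were gated as Flk1-negative, so Kdr is not read as equal.

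Posterior Hox genes were much higher in caudal cells. Of 12 Hox genes in paralogue groups 10 to 13, 8 were measured and 7 of these were at least 4-fold lower in rostral cells, with a median difference of -3.67, against a median of 0.00 and 0.537% caudal higher at 4-fold over all genes. The remaining measured one, Hoxd12, differed by -0.32 (-1.69 in rostral and -1.38 in caudal cells). Hoxb13, Hoxc11, Hoxc12 and Hoxc13 were not well above background in either sort. Summed over the 12 genes, the linear signal relative to the 75th percentile was 11.1 in rostral and 114 in caudal cells. Hoxc10, the brightest of them in each sort (3.1 and 6.17), made up most of both sums.

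Hoxa11, which with its paralogue Hoxd11 is needed for the metanephric kidney to form, was not well above background in rostral cells (-6.10) and stood at 3.20 in caudal cells, which made it at least 143-fold lower in rostral cells (a difference of -7.16, and of -4.91 under normexp). Its probe lies on chromosome 6 at 52192107 to 52192166 of mm9. Hoxd11 had levels of -2.71 in rostral and 3.17 in caudal cells, a 58.8-fold difference, and its second probe gave -6.18 and 2.85. Both genes were bright in caudal cells. In rostral cells Hoxd11 was well above background by the first probe, at a level close to the median of all genes there (-2.24).

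Promoter sequence is shown for these genes because they had the largest caudal differences among the listed genes, together with Hoxd10 as their neighbour on chromosome 2 and Lhx9 as a gene with the opposite pattern. The sequences are the 250 bases before each start in RefSeq (build GRCm38.p6), 5′ to 3′ on the gene's strand, and Hoxd11 has 2 listed starts. Of the 156 genes that the rule named and that are reported here, Hox genes with no measured signal included, 110 had an entry in that table. Capitals mark CACGTCAGC, the longest run that the Hoxa11 promoter shares with either Hoxd11 promoter on either strand, and TTTATG, a form of the sequence bound by Cdx and posterior Hox proteins, both searched on both strands.
Hoxa11, chr6:52245811-52246060, minus strand: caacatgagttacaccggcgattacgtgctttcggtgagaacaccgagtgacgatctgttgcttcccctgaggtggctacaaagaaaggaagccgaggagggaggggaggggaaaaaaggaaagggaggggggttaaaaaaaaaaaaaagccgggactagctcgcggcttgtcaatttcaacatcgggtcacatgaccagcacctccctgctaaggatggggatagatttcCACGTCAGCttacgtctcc
Hoxd11, chr2:74679308-74679557, plus strand: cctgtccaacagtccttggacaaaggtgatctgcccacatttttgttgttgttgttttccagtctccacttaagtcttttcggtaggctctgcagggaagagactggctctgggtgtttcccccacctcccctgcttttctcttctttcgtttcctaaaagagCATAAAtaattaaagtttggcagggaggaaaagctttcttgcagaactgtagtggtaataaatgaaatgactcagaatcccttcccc
Hoxd11, chr2:74682073-74682322, plus strand: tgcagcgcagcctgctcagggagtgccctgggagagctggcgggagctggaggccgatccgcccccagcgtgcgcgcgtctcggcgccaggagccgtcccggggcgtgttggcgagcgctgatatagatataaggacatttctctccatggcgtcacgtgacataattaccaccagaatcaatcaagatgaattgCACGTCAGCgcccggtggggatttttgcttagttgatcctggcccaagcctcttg
Hoxd10, chr2:74691641-74691890, plus strand: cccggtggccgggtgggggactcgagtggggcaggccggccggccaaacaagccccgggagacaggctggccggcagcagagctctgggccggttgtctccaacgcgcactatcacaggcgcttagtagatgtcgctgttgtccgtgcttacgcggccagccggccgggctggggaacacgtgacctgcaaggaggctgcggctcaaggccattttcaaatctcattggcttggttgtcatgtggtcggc
Lhx9, chr1:138842445-138842694, minus strand: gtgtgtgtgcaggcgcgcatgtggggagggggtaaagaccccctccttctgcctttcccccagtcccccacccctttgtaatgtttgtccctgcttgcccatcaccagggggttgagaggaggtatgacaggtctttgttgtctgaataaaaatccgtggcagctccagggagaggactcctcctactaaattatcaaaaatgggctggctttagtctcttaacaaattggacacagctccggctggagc
The run CACGTCAGC occurred once in the Hoxa11 window and once in the second Hoxd11 window, and in 64 of all 32851 promoter windows of this length (0.195%). TTTATG, here as its complement, occurred once in the first Hoxd11 window and in none of the others, against 10.8% of all windows. A match describes these letters only, and the arrays do not say which start was used.

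The neighbouring genes of the Hoxd cluster followed the same direction. Hoxd10 stood at -1.60 in rostral and 2.52 in caudal cells (17.4-fold), and Hoxd13, which patterns the digits and the hindmost trunk, at -2.70 and 1.13 (14.3-fold). In the Hoxa cluster, Hoxa10 had levels of 0.22 in rostral and 3.73 in caudal cells (11.4-fold). Hoxa13 stood at -1.56 and 0.69 (4.76-fold), with a second probe that was well above background in caudal cells only (-4.20 in rostral and -0.20 in caudal cells). Hoxc10 was well above background in both sorts, at 3.1 in rostral and 6.17 in caudal cells (8.37-fold). Group 10 genes were thus present in the rostral sort at a lower level, whereas Hoxa11 was not well above background there. The antisense transcript Hoxa11os read -2.27 in rostral and 1.56 in caudal cells, on a probe of its own at 52199709 to 52199768 of chromosome 6 (mm9), apart from the probe of Hoxa11.

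Groups 1 to 9 showed no common direction. Of 27 measured genes, 4 were at least 2-fold rostral higher and 4 caudal higher (14.8% each, against 8.18% and 3.83% of all genes), with a median difference of -0.18. Hoxa4 stood at 1.54 in rostral and -0.51 in caudal cells (4.16-fold). For Hoxc8 the levels were -0.10 in rostral and -1.73 in caudal cells, for Hoxb9 they were 4.33 and 2.85, and for Hoxb8 they were 1.22 and 0.00, each higher in rostral cells. Hoxa9, by contrast, was lower in rostral cells at 1.36, against 3.11 in caudal cells, and both of its probes gave that direction (-1.75 and -1.42). Within paralogue group 9 the 4 clusters therefore differed, with Hoxb9 rostral higher, Hoxa9 caudal higher, and Hoxc9 (-0.18) and Hoxd9 (-0.92) within 2-fold.

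Hoxd1 and Hoxb1, which mark the hindbrain and the early embryo, were caudal higher. Hoxd1 stood at -1.25 in rostral and 1.85 in caudal cells (8.57-fold), and Hoxb1 at -2.63 and -0.80 (3.55-fold). The plot by paralogue group shows the pairs of levels staying within 2-fold from group 2 to group 8, apart from Hoxa4, Hoxb8 and Hoxc8, and opening from group 10 on.

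**Figure D2:**
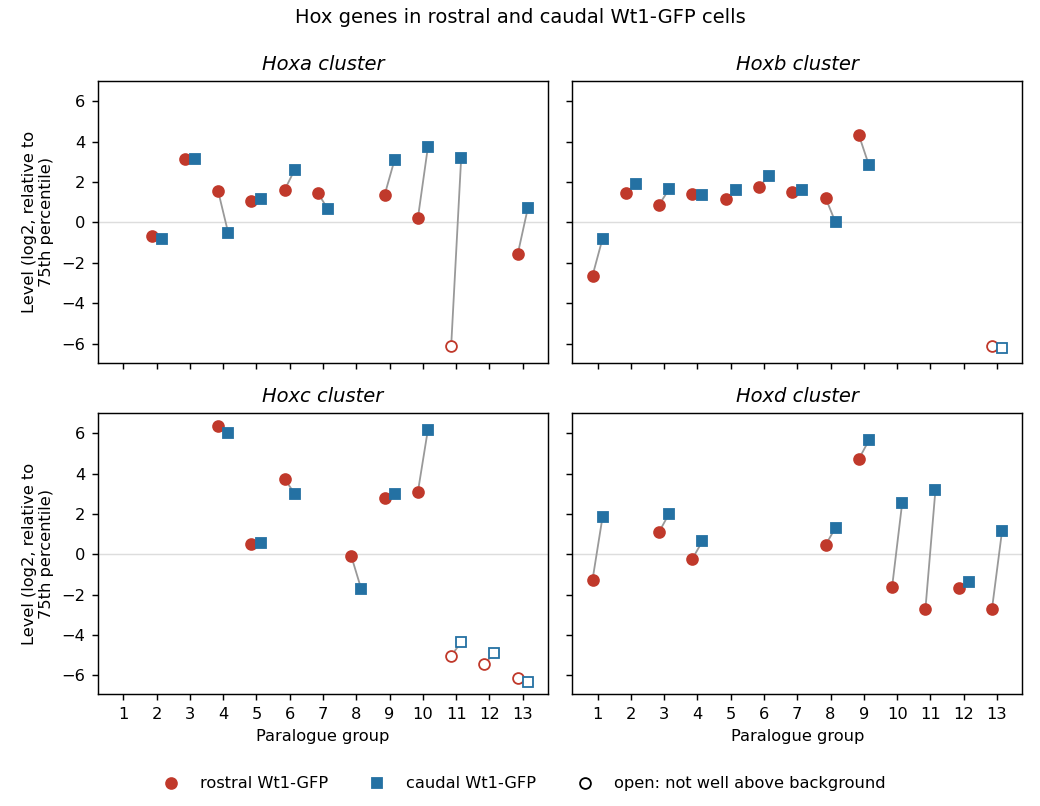
Level of the Hox genes shown (log2, relative to the 75th percentile) by paralogue group, in 1 panel per cluster, with 1 array for rostral (red circles, left) and 1 for caudal (blue squares, right) Wt1-GFP cells. Open symbols were not well above background; the lines are longest for Hoxa11 (-6.10 and 3.20) and Hoxd11 (-2.71 and 3.17).

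The partners of Hox proteins on DNA did not follow the posterior Hox genes. Of 9 cofactor genes of the Pbx, Meis and Pknox families, 1 was caudal higher (11.1%, against 3.83% of all genes) and 0 rostral higher (0%, against 8.18%). The 1 gene was Pbx4 (-3.50 in rostral and -2.03 in caudal cells), and the 9 differences had a median of 0.06. Meis1 had levels of 3.83 in rostral and 3.76 in caudal cells.

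Genes of the tail bud, the growth zone that lays down the caudal trunk, were caudal higher where they were past 2-fold. Of 16 measured, 4 were caudal higher (25%, against 3.83% of all genes) and 0 rostral higher (0%, against 8.18%). Of the 18 listed genes, 9 were well above background in the rostral sort and 16 in the caudal sort. Over all 35072 genes the counts were 23258 and 22857. Evx1, a homeobox gene beside the Hoxa cluster, was not well above background in rostral cells (-6.07) and stood at -0.31 in caudal cells, at least 12.6-fold lower in rostral cells. Cdx4 and Cdx2, homeobox genes that switch on posterior Hox genes, were likewise well above background in caudal cells only, at -4.99 in rostral and -1.87 in caudal cells for Cdx4 and at -6.24 and -2.38 for Cdx2 (at least 4.25-fold and 2.99-fold lower in rostral cells, and under 2-fold with normexp, at -0.68 and -0.60). Mixl1, a homeobox gene of the primitive streak, was at least 4.11-fold lower in rostral cells, and also under 2-fold with normexp (-0.79). Of the 4 genes, Evx1 stayed past 2-fold with normexp (-1.68). T, the defining gene of the primitive streak and notochord, was not well above background in either sort, and Tbx6 and Msgn1 of the presomitic mesoderm differed by 0.20 and 0.13.

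Transcription factors of the 2 limb levels took opposite sides. Tbx5, a T-box factor of the forelimb field that is also made in the heart and proepicardium, had a level of 0.14 in rostral cells and was not well above background in caudal cells (-5.68), at least 21.5-fold higher in rostral cells. Tbx4, its counterpart in the hindlimb field, was not well above background in rostral cells (-6.11) and stood at -1.99 in caudal cells, at least 3.91-fold lower in rostral cells, although under 2-fold with normexp (-0.67). Pitx1, which acts upstream of Tbx4 in the hindlimb, had levels of -2.87 in rostral and 1.36 in caudal cells (18.7-fold). Isl1, a LIM homeobox factor of the hindlimb field and of other lineages, had levels of -0.61 and 1.95 (5.91-fold).

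Other genes of the limb and lateral plate list filled both sides, so that of 18 measured members 4 were rostral higher and 4 caudal higher (22.2% each, against 8.18% and 3.83% of all genes), with a median of 0.17. Tbx2 was at least 4.16-fold higher in rostral cells. Others past 2-fold were Tbx3 on the rostral side (1.58) and Prrx1 on the caudal side (-1.42). Hand1, Hand2, Foxf1, Fgf10 and Twist1 were within 2-fold (differences of -0.39 to 0.68).

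The genes most strongly higher in rostral cells included several of the coelomic lining and of the tissue around the heart and liver. Gata4, a zinc finger factor of the heart, the septum transversum and the gonadal ridge, had levels of 3.1 in rostral and -3.08 in caudal cells, a 72.5-fold difference on 1 probe (log2 difference 6.18, or 4.56 under normexp; chromosome 14 at 63817858 to 63817917, mm9). Lhx9, a LIM homeobox factor needed for the gonad, stood at 1.97 in rostral cells and was not well above background in caudal cells (-3.92), at least 59.3-fold higher in rostral cells. Its other 2 probes gave differences of 2.83 and 4.29, each with a signal in rostral cells only.

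Of 16 measured genes of the coelomic epithelium and gonadal ridge, 7 were rostral higher (43.8%, against 8.18% of all genes) and 0 caudal higher, with a median difference of 0.82. Upk3b, a mesothelial membrane protein, had levels of 1.10 in rostral and -2.99 in caudal cells (17.0-fold). For Emx2, a homeobox factor of the urogenital ridge, they were -0.41 and -3.15 (6.68-fold), and for Bnc1, a zinc finger factor of mesothelium, -0.31 and -1.44 (2.19-fold). Nr5a1, the steroidogenic factor of the gonad and adrenal, differed by 0.28, and the mature mesothelial gene Msln was not well above background in either sort. The group thus held both large differences and several genes at like levels.

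In the proepicardium and septum transversum list, 8 of 13 measured genes were rostral higher (61.5%, against 8.18% of all genes) and 0 caudal higher, with a median of 1.52. Besides Gata4 and Tbx5, Alcam, a cell adhesion molecule, had levels of 1.63 in rostral and -3.16 in caudal cells (27.7-fold). Lhx2, a LIM homeobox factor of liver mesenchyme, had 1.55 and -2.89 (21.7-fold). Sema3d, a guidance protein of the proepicardium, was at least 5.35-fold higher in rostral cells. Tbx18, a T-box factor of the epicardium, had levels of 0.66 and -0.86 (2.86-fold), Mab21l2 had 2.64 and 0.88, and Gata6 had 2.40 and 0.96 (2.71-fold). Tcf21, another epicardial factor that the kidney stroma and splanchnic mesoderm also make, did not take that side (1.60 in rostral and 1.87 in caudal cells). The Gata5 probe read between 7.06 and 7.20 in all 6 divided sorts, so Gata5 is not read as equal.

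Contractile proteins of heart muscle were rostral higher too. Of 15 measured genes of that list, 11 were rostral higher (73.3%, against 8.18% of all genes) and 0 caudal higher, with a median of 1.31; under normexp the rostral count was 6. Myl4, an atrial myosin light chain, had levels of 2.83 in rostral and -2.35 in caudal cells (36.4-fold), and Myl7, another atrial light chain, was at least 30.3-fold higher in rostral cells (0.64, against -5.16 in caudal cells). Tnnt2, cardiac troponin T, had levels of -0.65 and -3.79 (8.82-fold). The summed linear signal of the 20 listed genes was 16.9 in rostral and 4.47 in caudal cells. Nkx2-5, Tnni3, Actn2, Pln and Smpx, also of heart muscle, were not well above background in either sort, and Actc1 differed by -0.56. Myl2 was 9.42-fold higher in rostral cells by 1 probe and level by the other (-0.03).

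Those marker genes moved with the rostral sort together with Gata4, Tbx5 and the proepicardial genes, and their part in those differences was not tested. Liver genes did not move with them. Of 14 listed, 8 were not well above background in either sort (10477 of 35072 over all genes), among them Afp, Alb and Hnf4a. Of 6 measured, 0 were rostral higher (0%, against 8.18% of all genes) and 2 caudal higher (33.3%, against 3.83%). Apob was at least 4.89-fold lower in rostral cells, but under 2-fold with normexp (-0.71). For Trf the 2 probes differed in sign (-1.40 and 1.36). In the splanchnic mesoderm and spleen list, Barx1, a homeobox factor of the stomach mesenchyme, was at least 13.3-fold higher in rostral cells (-0.24, against -3.97 in caudal cells), while Foxf2 was 3.40-fold lower in rostral cells. The plot of regional regulators sets the 2 levels of these genes side by side.

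**Figure D3:**
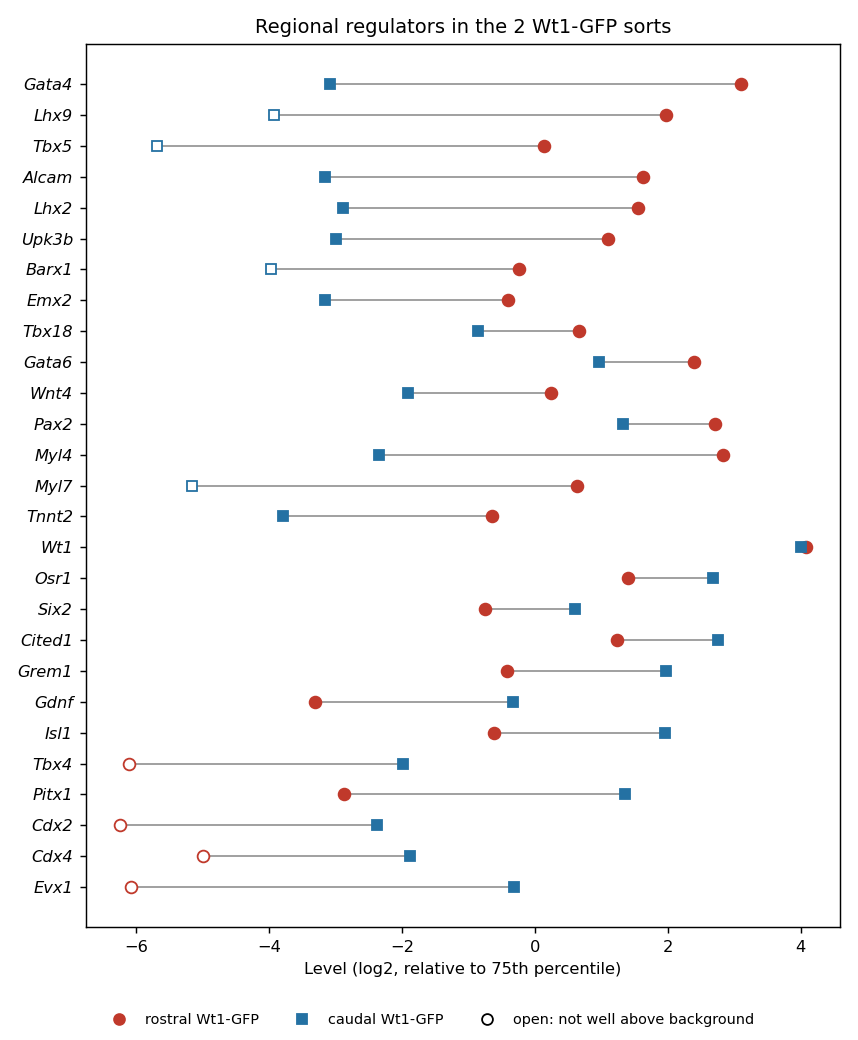
Levels (log2, relative to the 75th percentile) of regional regulators and 3 heart muscle genes in rostral (red circles) and caudal (blue squares) Wt1-GFP cells, 1 array each, with open symbols where the signal was not well above background. The genes from Gata4 to Tnnt2 lie higher in rostral cells, Wt1 is level (4.08 and 4.01), and those from Osr1 to Evx1 lie higher in caudal cells.

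The regulators of nephron progenitors were measured in both sorts and leaned to the caudal side. Of 20 genes, 20 were well above background in each sort, against 23258 in the rostral and 22857 in the caudal sort of all 35072 genes. Among the 20, 7 were caudal higher (35%, against 3.83% of all genes) and 3 rostral higher (15%, against 8.18%), with a median difference of -0.53. These counts take in Six2 and Eya1, whose probes are described below. Gdnf, the ligand that draws the ureteric bud from the duct, had levels of -3.30 in rostral and -0.33 in caudal cells (7.83-fold). Grem1, a BMP antagonist needed for bud outgrowth, had -0.42 and 1.98 (5.28-fold). Cited1, a transcriptional co-regulator of the metanephric cap, had 1.23 and 2.75 (2.86-fold), and Crym, a thyroid hormone binding protein, had -0.05 and 1.38 (2.70-fold).

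Among the transcription factors of this list, Osr1, an early marker of intermediate mesoderm, stood at 1.40 in rostral and 2.68 in caudal cells (2.42-fold). Six2, which keeps cap progenitors in a progenitor state, was 2.57-fold lower in rostral cells by the probe used, but of its 3 probes with a signal 2 were lower (-1.36 and -0.77) and 1 higher (1.61) in rostral cells. Pax2, a paired box factor of the whole kidney lineage, ran the other way, at 2.71 in rostral and 1.32 in caudal cells (2.63-fold, with 0.69 and 0.77 for its other 2 probes). Wnt4, which starts the change from mesenchyme to nephron epithelium and acts in the gonad, had levels of 0.24 and -1.90 (4.42-fold, 1.57 for the second probe). Osr2 was also on the rostral side (1.06). Pax8 and Lhx1 differed by 0.14 and 0.56, and the Eya1 probe was flat over the arrays and is not read as equal.

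Genes of the duct list were mostly dim, with a median level of -3.37 in the rostral and -3.44 in the caudal sort. Pax2, at 2.71 and 1.32, was the brightest of them in each sort. Ret, Wnt9b and Tfap2b were not well above background in either, and of 11 measured duct genes 3 were rostral higher (27.3%, against 8.18% of all genes) and 2 caudal higher (18.2%, against 3.83%). Gata3 had levels of -1.0 in rostral and 0.08 in caudal cells (2.11-fold), and Grhl2, an epithelial factor, was well above background in caudal cells only (at least 2.46-fold lower in rostral cells). Epcam, an epithelial adhesion protein, was 3.48-fold lower in rostral cells (-2.93, against -1.13 in caudal cells). Under normexp Gata3, Grhl2 and Epcam were under 2-fold (-0.84, -0.46 and -0.70). The summed linear signal of the 14 duct genes was 11.4 in rostral and 6.52 in caudal cells. Pax2 and Emx2 are themselves in that sum, so it is no separate measure of duct cells beside them. The part of duct cells in the differences of Pax2 and Emx2 was not tested.

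Signalling genes were divided by pathway. For retinoic acid, which patterns the trunk, 4 of 16 measured genes were rostral higher (25%, against 8.18% of all genes) and 0 caudal higher, with a median of -0.02. Aldh1a1, a retinaldehyde dehydrogenase, was at least 8.86-fold higher in rostral cells (-1.14, against -5.22 in caudal cells). Adh1, an alcohol dehydrogenase that can oxidise retinol, had levels of 3.42 and 1.22 (4.58-fold), while Dhrs3 and Rxra were 2.21-fold and 2.05-fold higher. Aldh1a2, the main enzyme of the trunk mesoderm, was level at 3.82 in rostral and 3.75 in caudal cells, and Cyp26a1, which breaks retinoic acid down, was well above background in caudal cells only, with a bound under 2-fold.

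The FGF list held 18 measured genes, of which 1 was rostral higher (5.56%, against 8.18% of all genes) and 4 caudal higher (22.2%, against 3.83%). Fgf5 had levels of 2.61 in rostral and -1.33 in caudal cells (15.3-fold). Targets of FGF signalling through ERK were caudal higher or within 2-fold. Dusp6, an ERK phosphatase, had levels of 4.03 in rostral and 5.26 in caudal cells (2.34-fold), Etv4, an ETS factor, had 1.30 and 2.58 (2.41-fold), and Il17rd, a feedback inhibitor, had 3.44 and 4.81 (2.58-fold). Etv5 fell just short of 2-fold (-1.0), and Spry1, Spry2 and Spry4 were within 2-fold (-0.07 to 0.70). The fourth gene past 2-fold was Fgf20, for which the probes differed in sign (-1.94 and 0.20).

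Of 10 measured genes of the immediate early and heat shock list, which respond to ERK and also to dissociation, 3 were caudal higher (30%, against 3.83% of all genes), 0 were rostral higher and 7 were within 2-fold. Egr1 had levels of 3.38 in rostral and 4.71 in caudal cells, Egr2 had -3.41 and -1.47, and Fos had 0.17 and 1.41. Of those within 2-fold, Atf3, Hspa1a and Dusp1 had positive differences (0.97, 0.35 and 0.08). The list had summed linear signals of 22.6 in rostral and 41.3 in caudal cells, and its part in the differences of Dusp6, Etv4 and Il17rd was not tested.

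In the Wnt list 7 of 29 measured genes were rostral higher (24.1%, against 8.18% of all genes) and 2 caudal higher (6.9%, against 3.83%). The secreted antagonists Sfrp5, Sfrp1 and Sfrp2 were 6.0-fold, 3.63-fold and 2.29-fold higher in rostral cells. Wnt2b had levels of 0.96 in rostral and -1.47 in caudal cells (5.40-fold). Of the R-spondins, which strengthen Wnt signalling, Rspo2 was 3.98-fold higher in rostral cells (-0.59, against -2.58 in caudal cells) and Rspo1 was 2.47-fold lower (0.75, against 2.06 in caudal cells). Lef1, a nuclear factor and target of the pathway, was 2.22-fold lower in rostral cells, and the target Axin2 differed by -0.22.

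Of 20 measured BMP genes 4 were rostral higher (20%, against 8.18% of all genes) and 1, Grem1, caudal higher (5%, against 3.83%), with a median of 0.51. Bmper, a secreted BMP modulator, had levels of 0.76 in rostral and -2.92 in caudal cells (12.8-fold). Id4, an inhibitor of helix-loop-helix factors, had -1.62 and -3.54, and the ligands Bmp6 and Bmp2 were 2.64-fold and 2.47-fold higher in rostral cells. Bmp4 was level at 4.23 and 4.40. Gdf6, a related ligand that is not on that list but was among the 15 largest rostral differences, was at least 23.5-fold higher in rostral cells.

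Collagens and other stromal genes were rostral higher or level. Of 20 measured, 7 were rostral higher (35%, against 8.18% of all genes) and 0 caudal higher, with a median of 0.80. Col1a2 had levels of 4.49 in rostral and 2.47 in caudal cells (4.05-fold), Col1a1 had 1.14 and -0.50 (3.12-fold), and Dcn, a small matrix proteoglycan, was at least 6.27-fold higher in rostral cells. Foxd1, the defining factor of the kidney stroma, differed by 0.22 (3.07 and 2.85). The stromal nuclear receptor Nr2f1 was level as well (0.20).

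The plot of all lists places these groups in order of their median difference. Lists whose members lay near 0 included 18 cell cycle genes, with 0 past 2-fold (against 12% of all genes) and a median of -0.21. They also included 12 housekeeping genes, of which Hprt was past 2-fold (1.66 in rostral and 2.77 in caudal cells). Among markers of other tissues, neural genes had 4 of 15 rostral higher (26.7%, against 8.18% of all genes) and 2 caudal higher (13.3%, against 3.83%). Pax6, a paired box factor of the neural tube and eye, was at least 7.76-fold higher in rostral cells. Dcx and Tubb3 of young neurons were 3.79-fold and 2.83-fold higher, and Sox3 was 2.46-fold higher. Isl1, also on that list, was 5.91-fold lower in rostral cells. Neurog2 was well above background in caudal cells only (at least 2.68-fold lower in rostral cells). Stmn2 was not well above background in either. Summed linear signals of the neural list were 46.9 in rostral and 36.6 in caudal cells.

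Endothelial genes leaned to the rostral side, with a median of 0.52. Of 13 measured, 4 were rostral higher (30.8%, against 8.18% of all genes) and 1 caudal higher (7.69%, against 3.83%). Sox7, an endothelial transcription factor, and Tek, the angiopoietin receptor, were well above background in rostral cells only (at least 3.38-fold and 2.79-fold higher). Flt1, a VEGF receptor, was 2.32-fold higher, with 1 of its 3 probes lower, and Fli1, an ETS factor, was 2.23-fold higher. Etv2, an early regulator of blood and vessel formation, was 2.08-fold lower in rostral cells (-1.33, against -0.28 in caudal cells). Under normexp Sox7, Tek, Flt1 and Fli1 were under 2-fold (0.46 to 0.89), and so was Etv2 (-0.67). Cdh5, Tie1, Erg, Sox17, Sox18 and Icam2 were not well above background in either sort. The summed linear signal of the list was 9.98 in rostral and 8.93 in caudal cells. That sum includes the Kdr probe (2.10 in both sorts), which is not read as equal.

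Blood genes had 1 of 10 rostral higher and 1 caudal higher (10% each, against 8.18% and 3.83% of all genes). Embryonic globins were present in both sorts, with Hbb-y at 2.48 in rostral and 1.82 in caudal cells, and the blood list summed to 24.8 and 20.6. Alas2, the erythroid enzyme of haem synthesis, was 4.28-fold higher in rostral cells, and Klf1, an erythroid factor, was well above background in caudal cells only (at least 3.07-fold lower in rostral cells). Of 13 measured somite genes, 1 was rostral higher (7.69%, against 8.18% of all genes) and 2 caudal higher (15.4%, against 3.83%). These were Dll1 on the rostral side (2.84-fold), and Lfng (4.66-fold) and Pax9 (2.41-fold) on the caudal side. Of the X and Y linked genes, Xist differed by 0.84 and Ddx3y by -1.22, and whether the embryos of the 2 sorts differed in sex is not given. The part of these genes in the other differences was not tested.

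**Figure D4:**
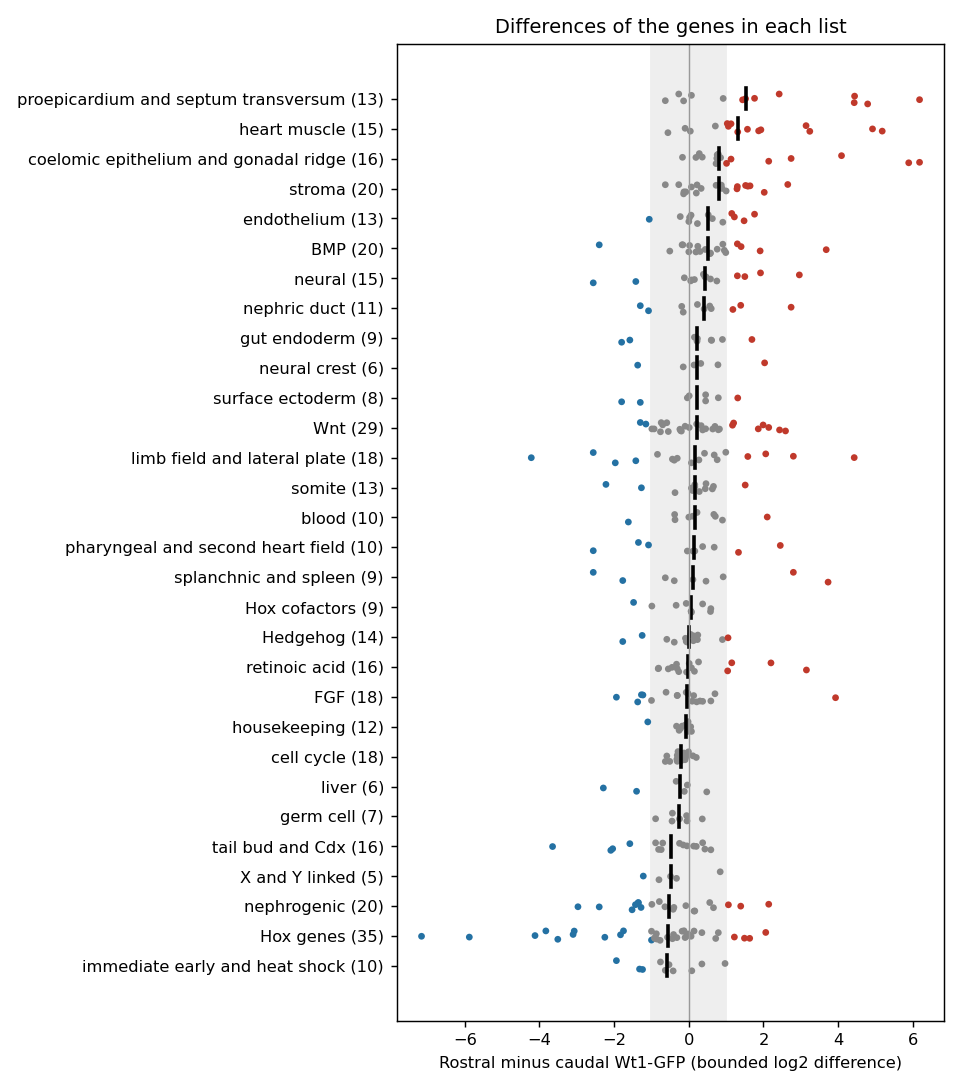
Rostral minus caudal Wt1-GFP difference (bounded log2) of each measured gene in 30 lists, 1 point per gene, with the number of measured genes in brackets and the list median as a black bar. Red points are at least 2-fold rostral higher, blue points at least 2-fold caudal higher, and the grey band spans differences under 2-fold; medians run from 1.52 (proepicardium and septum transversum) to -0.58 (immediate early and heat shock).

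The largest differences outside the lists included genes of less clear connection to the mesoderm. On the rostral side, Prss56, a serine protease, was at least 52.8-fold higher (1.44, against -6.28 in caudal cells). Flrt1, a transmembrane protein with leucine-rich repeats, was 36.9-fold higher (1.75, against -3.45 in caudal cells), and Lhx8, a LIM homeobox factor, was at least 23.4-fold higher. Adm, the vasodilator peptide adrenomedullin, was at least 23.2-fold higher, and Slc24a3, a sodium and calcium exchanger, at least 21.8-fold. Psg29 and the olfactory receptor gene Olfr481 were at least 32.8-fold and 26.1-fold higher, each on 1 probe of a family with many close copies, so which copy gave the signal is uncertain.

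On the caudal side 10 of the 15 largest differences were Hox genes, Hoxa11os, Evx1, its antisense neighbour Evx1os, or Pitx1. The others were Pde6b (19.8-fold), Fgl1 (at least 13.5-fold), Gm53 (12.4-fold), Cd83 (at least 12.0-fold) and Tnfrsf13c (at least 9.81-fold), all lower in rostral cells. Pde6b, a phosphodiesterase subunit of rod cells, had levels of -3.82 in rostral and 0.49 in caudal cells, and Cd83, an immunoglobulin family protein of immune cells, had -4.77 and -0.37. Each of these 5 rested on 1 probe with a signal. The probe of Gm53 lies near the Hoxb cluster, on chromosome 11 at 96125513 to 96125572 (mm9), with the Hoxb9 probe at 96137748 to 96137807.

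The same rostral minus caudal difference was then set beside that of the duct sorts, which were divided at E9.5 and at E10.5. In the duct 9.01% of genes were at least 2-fold rostral higher and 5.70% caudal higher at E9.5, and 4.76% and 7.81% at E10.5. Posterior Hox genes leaned the same way in all 3 pairs: of groups 10 to 13, 7 of 8 measured were caudal higher in Wt1-GFP cells, 6 of 10 in the duct at E9.5 and 5 of 8 in the duct at E10.5. Hoxd11, for example, differed by -5.88 in Wt1-GFP cells, and by -4.82 and -3.35 in the duct at E9.5 and E10.5, the E10.5 value being a bound. Hoxa11 differed by -7.16 in Wt1-GFP cells, and by -0.48 and -3.12 in the duct, where the Wt1-GFP and E10.5 values are bounds.

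Heart muscle genes leaned to the rostral side in the E9.5 duct as well, where 11 of 16 measured were rostral higher and 0 caudal higher, and not in the E10.5 duct, with 1 and 4 of 17. The difference of Myl4 was 5.18 in Wt1-GFP cells, and 7.11 and -0.07 in the duct at E9.5 and E10.5. Gata4 showed 6.18 in Wt1-GFP cells against 4.90 and 1.60, the last a bound, in the duct. Nephrogenic genes leaned the other way in the duct, with 9 of 20 rostral higher and 2 caudal higher at E9.5, against 3 and 7 of 20 in Wt1-GFP cells.

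A limma fit over the 8 arrays, with 5 groups of stage and reporter, a duct position term and a Wt1-GFP position term, tested whether the difference in Wt1-GFP cells departed from that in the duct. With 1 residual degree of freedom, 0 of 29377 genes passed an adjusted p of 0.05 (0% called), the lowest adjusted p was 0.78, and 1749 genes (5.95%) had an unadjusted p under 0.05. In simulated data of this design the test found 0 of 50 genes at each of 4 interaction sizes, up to 4 on the log2 scale, so a count of 0 carries no information on likeness. Aldh1a1 passed when the prior variance followed intensity (adjusted p = 0.035 from limma), with a rostral minus caudal difference of 3.15, a bound, in Wt1-GFP cells and of -4.10 and -3.85 in the duct at E9.5 and E10.5. The residual of the fit was the difference between the 2 duct stages in rostral minus caudal, which was small for Aldh1a1 (-4.10 and -3.85). It held no spread of the Wt1-GFP sorts. The fit took levels without bounds. For Aldh1a1 it thus used the caudal Wt1-GFP level of -5.22, which was not well above background (a difference of 4.08). The plot of the 3 pairs shows which genes kept or turned their side.

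**Figure D5:**
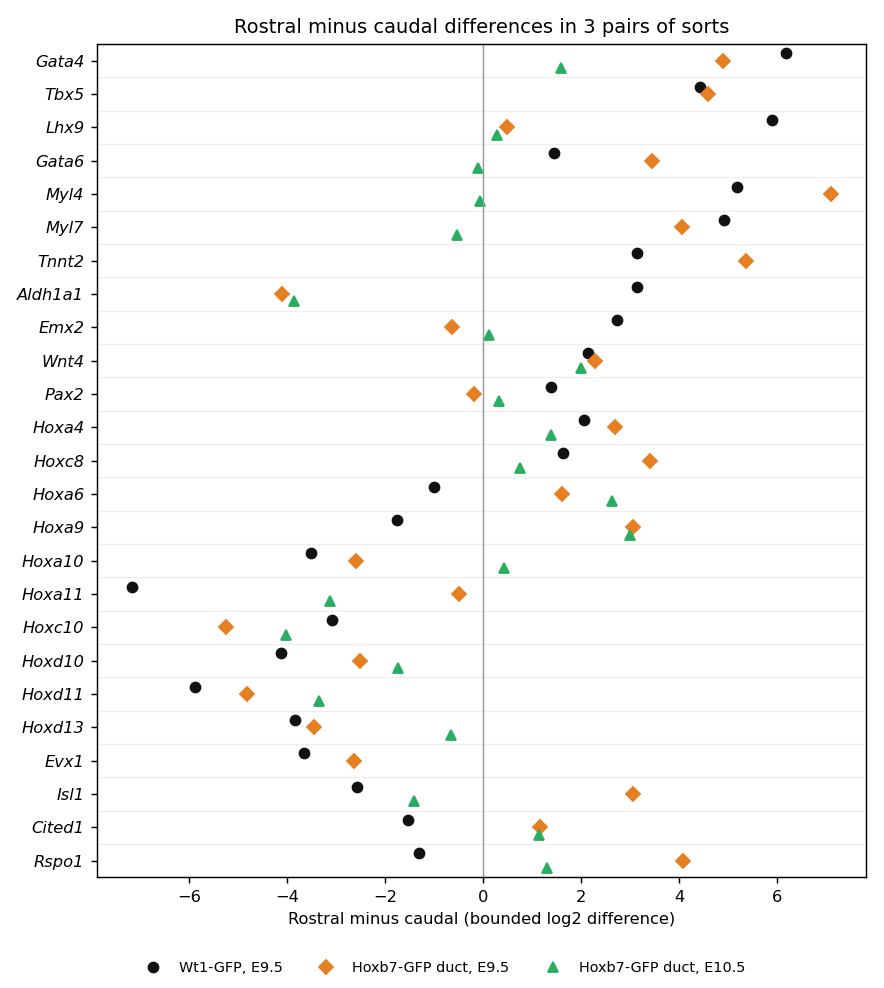
Rostral minus caudal difference (bounded log2) of 25 genes in Wt1-GFP cells at E9.5 (black circles) and in Hoxb7-GFP duct sorts at E9.5 (orange diamonds) and E10.5 (green triangles), 1 array per position in each pair; a missing symbol means that the gene was not well above background in that pair. Hox genes of groups 10 to 13 lie left of 0 in most pairs, while Hoxa9 (-1.75 in Wt1-GFP cells, against 3.07 and 3.00 in the duct) and Aldh1a1 lie on opposite sides.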

How the data were processed

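RNA of sorted cells (10 ng per sample, per the labels) was amplified and labelled with Cy3 for 1-colour Agilent arrays, 8 on 1 slide with 1 scan time, with both Wt1-GFP arrays in the same slide row. The deposited scanner files hold an intensity per spot after background subtraction, made with Feature Extraction (Agilent, 10.7.3.1) per the file headers. The deposited value table holds log2 values of the same arrays whose scale and centring are not given in the sources used here; they followed the scanner levels minus each probe's median at r = 0.9999, and were an alternative. Their direction followed that of the scanner levels. Probe coordinates are those of the files (mm9).

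Control and outlier spots were dropped, spots of 1 probe were averaged, and 55663 probes remained. Each level is log2 of the processed signal minus log2 of the array's 75th percentile. A probe was named by its RefSeq accession (26755 probes), its symbol where RefSeq lists it (3817) or its own name (25091). A gene was represented by its probe with the highest mean over the 2 Wt1-GFP arrays, and entered if that probe was well above background on at least 1 of them. Bounds were set as described in the report, and a gene was called past 2-fold by its bounded difference. The number of arrays limits the precision. The interaction was fitted with limma 3.58.1 in R 4.3.3 (with data.table in version 1.17.8) and adjusted by Benjamini-Hochberg. Differences were computed in Python 3.11.15 with pandas 2.3.3 and numpy 2.4.6, and plotted with matplotlib 3.10.9. Both steps were tested on simulated data. Nothing in the labels says that the sorts came from separate animals. The residual behind the p-values of the fit was the difference between the E9.5 and E10.5 duct in rostral minus caudal. It mixes stage with array spread and holds no spread of the Wt1-GFP sorts. A gene with like duct differences at both stages thus had a small residual.

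The 30 lists hold 442 names, of which 377 entered. Genes were named by rule: the label genes, every Hox gene, up to 6 members per list past 2-fold by size, the 2 with the highest level where fewer passed, and 15 genes each way by size, leaving out names RefSeq does not list and genes whose probes differed in sign. A few genes are not reported here. Other list members are named to complete counts and were chosen after their values were seen. The members and lists were chosen with earlier results of these data known. Alternatives covered normalization, background, the deposited table, averaging of probes, filters on dim probes and the fold.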

Additional observations from a re-analysis of the deposited data

Results flagged for a closer look

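Among the genes named by rule, 4 were past 2-fold in Wt1-GFP cells and past 2-fold the other way in the duct at both E9.5 and E10.5. Each was put to the interaction test, which had an adjusted p of 0.78 from limma for all 4 and found no simulated interaction in this design. Hoxa9 differed by -1.75 in Wt1-GFP cells and by 3.07 and 3.00 in the duct at E9.5 and E10.5. Aldh1a1 differed by 3.15, a bound, in Wt1-GFP cells and by -4.10 and -3.85 in the duct. Cited1 differed by -1.52 in Wt1-GFP cells and by 1.17 and 1.14 in the duct. Rspo1 differed by -1.30 in Wt1-GFP cells and by 4.08 and 1.31, both bounds, in the duct. The groups had 1 array per position, so no sample could be set against others of its group.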

How the results depend on the processing

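Of 873 named gene differences under other settings, 777 moved by less than the pooled SD between probes (0.47) and 96 moved by more, 84 of them under normexp background correction and 12 under averaging over probes. Of 224 list medians 219 moved by less than that SD. Genes past 2-fold numbered 464 rostral higher and 217 caudal higher under normexp with an offset of 50, which shrinks dim differences by construction, against 2011 and 942 in the report. They numbered 1141 rostral higher when both arrays had to be well above background, 3360 and 1711 with no filter on dim probes, and 469 and 132 at 4-fold. At 4-fold the nephrogenic genes higher in caudal cells were 2, the proepicardial genes higher in rostral cells 5 and the heart muscle genes higher in rostral cells 4; under normexp the heart muscle count was 6. The interaction count was 1 when the prior variance followed intensity. Normexp kept 681 of the calls in the same direction (23.1%), quantile normalization 2429 (82.3%), median scaling 2946 (99.8%) and the deposited values kept 2928 (99.2%). One bound for both arrays, chosen after seeing the data, changed no lead count by over 1.5 times. No paired analysis was possible because each position has 1 array and the labels carry no shared replicate numbers. For the same reason no array could be left out. A slide row term could not be fitted with the interaction, since it leaves 0 residual degrees of freedom. Genes near background carry bounds only.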
